A study of Homo sapiens with 12 samples.

Results

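SH4-54, a small molecule made to inhibit STAT3 and STAT5, was added to cells that also received dexamethasone (DEX), a drug that activates the glucocorticoid receptor. The comparison takes the 3 wells given 1 µM DEX with 8 µM SH4-54 and the 3 wells given 1 µM DEX, which are 6 of the 12 libraries of the series, and it covers all genes. The cells were of the human line MDA-MB-231, from a triple-negative breast cancer and mesenchymal in character, and every well was lysed after 24 h. The other 6 libraries, 3 wells with 8 µM SH4-54 alone and 3 wells with no drug, are used to ask whether the effect of SH4-54 differed without DEX. The no-drug wells are described as untreated, and no vehicle is named in the labels. A treatment label spells the compound SH5-54, while titles and design text spell it SH4-54. The labels name the wells as replicates and do not tie them to separate cultures or days, so a p-value here reflects how far wells of 1 cell line vary, which may be technical.

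Glucocorticoid receptor bound by DEX moves to the nucleus, where it raises genes such as FKBP5 and TSC22D3 and represses many genes driven by AP-1 and NF-kB. STAT3 and STAT5 are transcription factors that cytokine receptors activate through JAK kinases, and STAT3 is known to act beside the glucocorticoid receptor at acute-phase genes. The heat shock factor HSF1 drives chaperone genes, the antioxidant factor NRF2 drives detoxification genes, SREBP factors drive sterol synthesis, and AP-1, made of FOS and JUN proteins, drives many genes of early responses to stimulation. Which genes SH4-54 changed in cells already exposed to DEX is the question of this comparison.

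Counted reads per library ranged from 26280158 to 35758236 with both compounds and from 26040956 to 29426776 with DEX. Of the 26364 genes listed, 14184 were tested after a filter on low counts. The mesenchymal genes VIM, CD44, SNAI2 and AXL were present in all 12 libraries, with SNAI2 the lowest at 12.9 to 35 CPM, the counts scaled to a common library total. ESR1, PGR, KRT5, PTPRC, PECAM1 and ALB stayed at or below 1.2 CPM and GATA3 at or below 1.67 CPM. CDH1, the epithelial cadherin gene that this line is known to express weakly, was not near 0 and ranged from 5.29 to 15.1 CPM. Genes with at least 1 count numbered 18392 to 18995 in the combination wells and 17297 to 17475 in the DEX wells. After thinning every library to the smallest total, they numbered 18272 to 18861 with both compounds and 17277 to 17353 with DEX. The groups did not overlap, and the part of these weakly counted genes in the results below was not tested. Combination replicate 2 lay farthest from the DEX wells. On the second principal component, which held 17.5% of the variance, the combination wells were at -22.3, -31.4 and -13 and the DEX wells at 16.9, 17.9 and 15.9.

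Adding SH4-54 to DEX raised 1851 genes (13.0% of those tested) and lowered 1919 (13.5%), by edgeR's quasi-likelihood test at an adjusted p below 0.05. Most of these changes were small: 1529 of the risen and 1729 of the fallen genes changed by less than 1.5-fold. At least 2-fold changes were found in 163 risen and 44 fallen genes, and 57 rose at least 4-fold while 0 fell that far. The median log2 fold change over all tested genes was 0.00475, and the median standard error was 0.0638. Combination and DEX wells did not overlap for 5656 of the 14184 tested genes and for 3625 of the 3770 changed genes. Of the 3770 changed genes, combination replicate 2 was the well farthest from DEX in the direction of change for 71.6%, and replicate 3 the nearest for 74.1%. Without combination replicate 2, 1067 genes rose and 1146 fell, and 2159 of the 3770 genes were called again, 0 of them in the other direction. The fallen genes past 2-fold numbered 19 without combination replicate 2 and 111 without combination replicate 3. In RNA of whole wells, a change in some cells and a smaller change in all cells cannot be told apart. Below, fold changes are log2 of both compounds over DEX, ± is their standard error, and CPM values are given for replicates 1, 2 and 3 in that order. Shares of risen and fallen list members stand against the 13.0% and 13.5% over all tested genes. Most list members named below were chosen for the smallest p or after their values were seen. A lack of overlap between their combination and DEX wells was thus largely fixed by the choice and is no further support.

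The 12 largest rises and falls were taken among changed genes averaging at least 5 CPM in 1 of the 2 groups. Their combination and DEX wells also had to be free of overlap, so such separation was fixed by the choice. The rises were led by genes that were near the detection limit with DEX. HSPA6, a stress-inducible member of the HSP70 chaperone family, had 150.3, 483 and 156 CPM with both compounds, against 0.232, 0.308 and 0.641 CPM with DEX (9.37 ± 0.62, edgeR adjusted p = 5.05e-07). ARC, an activity-regulated immediate-early gene, had 15.7, 23.5 and 10.6 CPM with both compounds, against 0.0774, 0.171 and 0.0754 CPM with DEX (7.17 ± 0.40, edgeR adjusted p = 8.37e-08). FOSB, an AP-1 subunit gene, had 7.96, 13.7 and 6.42 CPM with both compounds, against 0.155, 0.205 and 0.188 CPM with DEX (5.63 ± 0.38, edgeR adjusted p = 6.35e-07). All 3 combination wells were far above all 3 DEX wells for these genes, and replicate 2 was the highest. MMP3, the gene of the matrix protease stromelysin-1, had 7.81, 7.75 and 4.82 CPM with both compounds, against 0, 0.103 and 0.339 CPM with DEX (5.48 ± 0.39, edgeR adjusted p = 1.06e-06). FAM166A had 4.24, 7.72 and 3.06 CPM with both compounds, against 0.0774, 0.0343 and 0.0377 CPM with DEX (6.54 ± 0.51, edgeR adjusted p = 2.03e-06).

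CCL26, the gene of a chemokine that attracts eosinophils, had 23.6, 32.7 and 17.0 CPM with both compounds, against 0.812, 1.1 and 1.02 CPM with DEX (4.63 ± 0.24, edgeR adjusted p = 5.68e-08). SNAI1, which encodes a transcriptional repressor of epithelial genes, had 7.46, 11.1 and 4.54 CPM with both compounds, against 0.503, 0.445 and 0.264 CPM with DEX (4.22 ± 0.40, edgeR adjusted p = 8.62e-06). IL11, a cytokine gene of the IL-6 family, had 52.5, 90.3 and 46.6 CPM with both compounds, against 11.9, 11.6 and 12.4 CPM with DEX (2.40 ± 0.19, edgeR adjusted p = 2.12e-06). In each case the lowest combination well exceeded the highest DEX well, as the choice of these genes required. IL11 stood at 284, 266 and 274 CPM with SH4-54 alone and 214, 230.4 and 245 CPM with no drug, so the combination wells lay between the DEX wells and the wells without DEX. RELN, the gene of an extracellular glycoprotein, had 8, 10.4 and 7.29 CPM with both compounds, against 2.09, 1.81 and 1.62 CPM with DEX (2.21 ± 0.14, edgeR adjusted p = 3.57e-07), and 14.9, 13.7 and 13.8 CPM with SH4-54 alone and 12.1, 11.9 and 12.2 CPM with no drug. RASD1, a Ras-related gene, rose by 2.06 ± 0.18 and RGS4, a regulator of G-protein signalling, by 1.80 ± 0.14. For RASD1 the wells were at 16.0, 21.7 and 12.9 CPM with both compounds, against 4.18, 3.94 and 3.92 CPM with DEX, and at 11.8, 14.2 and 14.9 CPM with SH4-54 alone and 13.6, 11.7 and 10.5 CPM with no drug. These RASD1 levels with both compounds overlapped those without DEX, while the DEX wells were the lowest of the 4 groups.

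**Figure D1:**
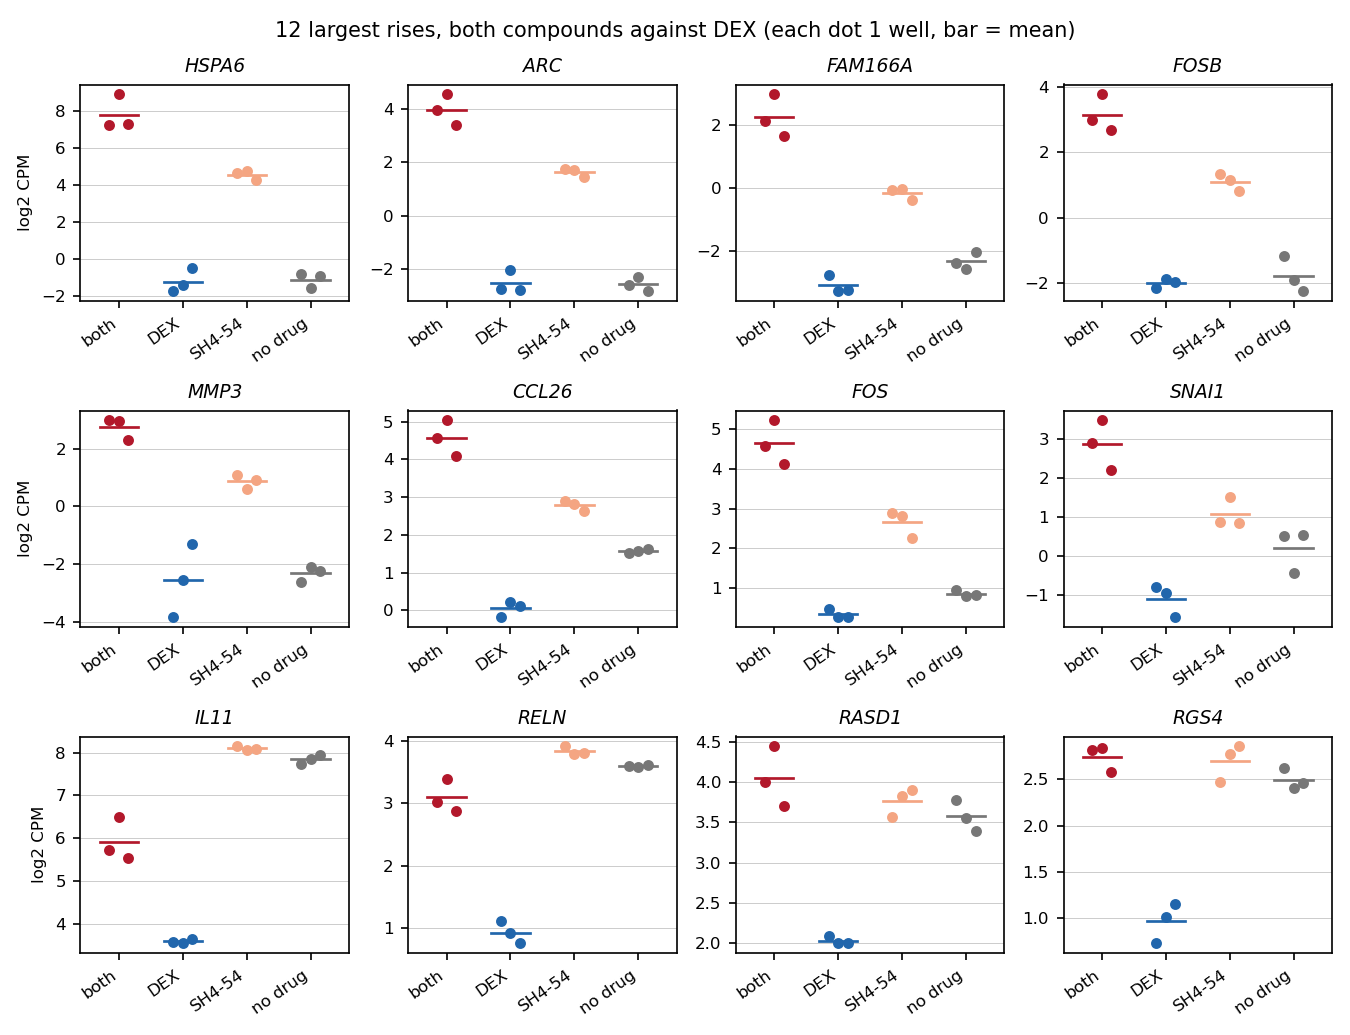
The 12 genes with the largest rises, 1 panel each: log2 CPM (prior count of 2) in each well, with both compounds, DEX, SH4-54 alone and no drug from left to right; dots are wells and bars group means. In every panel the 3 combination wells lie above the 3 DEX wells, as the choice of genes required. In the panels of IL11 and RELN the combination wells lie below the wells without DEX.

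In all, 31 risen genes averaged under 0.5 CPM with DEX and at least 1 CPM with both compounds. MMP10, the gene of stromelysin-2, had 2.45, 1.74 and 1.21 CPM with both compounds, against 0, 0 and 0 CPM with DEX. That is 154 counts with both compounds and 0 with DEX, so MMP10 was at least 47-fold higher, taking 3 counts over the DEX group as the floor. The lens and muscle chaperone gene CRYAB had 1.05, 2.46 and 1.09 CPM with both compounds, against 0.0387, 0.0343 and 0.0377 CPM with DEX. GADD45G and C11orf96 averaged 2.31 and 1.62 CPM with both compounds and 0.062 and 0.1 CPM with DEX.

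Heat shock and chaperone genes rose. For heat shock and cytosolic chaperones, of 29 tested members 19 rose (65.5%) and 0 fell (0%), with a median log2 fold change of 0.183, against 13.0% risen, 13.5% fallen and a median of 0.00475 over all tested genes. The list's median in the combination wells was 0.184, 0.279 and 0.148 log2 units above the DEX mean. Besides HSPA6, DNAJB1, the HSP40 partner of HSP70, had 248, 294 and 229 CPM with both compounds, against 151, 151 and 149 CPM with DEX (0.78 ± 0.063, edgeR adjusted p = 2.51e-06). HSPB1, a small heat shock protein gene, had 64.1, 83.8 and 63.5 CPM with both compounds, against 44.6, 44.6 and 46.6 CPM with DEX (0.64 ± 0.082, edgeR adjusted p = 0.000109). HSPH1, a nucleotide exchange factor of HSP70, had 391, 439.8 and 368 CPM with both compounds, against 289, 297 and 282 CPM with DEX (0.47 ± 0.051, edgeR adjusted p = 3.28e-05). None of these genes showed overlap between combination and DEX wells, and DEX wells differed little among themselves. The risen members included HSP90AA1 (0.26 ± 0.047), BAG3 (0.31 ± 0.058) and HSPB8 (0.56 ± 0.088). HSF1, the factor that drives these genes, rose by 0.28 ± 0.063 (edgeR adjusted p = 0.005). HSPA1A had 2.8, 6.34 and 2.35 CPM with both compounds, against 0.58, 0.685 and 0.716 CPM with DEX. HSPA1A and HSPA1B (1.38 ± 0.17) are near-identical copies, so their counts are uncertain, and HSPA6 has a near-identical pseudogene. The constitutive HSPA8 and the mitochondrial HSPD1 and HSPE1 did not pass.

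The promoters of HSPA6 and HSPA1A are shown because the family was led by HSP70 genes and heat shock factors bind inverted GAA units there. Capitals mark GAANNTTC, searched on both strands; the sequences are RefSeq's, GRCh38.p14, plus strand.
HSPA6, chr1:161524348-161524490: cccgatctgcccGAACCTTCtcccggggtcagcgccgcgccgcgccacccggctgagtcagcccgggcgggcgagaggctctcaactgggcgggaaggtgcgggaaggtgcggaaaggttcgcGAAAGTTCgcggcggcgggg
HSPA1A, chr6:31815407-31815474: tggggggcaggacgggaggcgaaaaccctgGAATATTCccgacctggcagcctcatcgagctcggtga
The motif starts 180 bases before the HSPA6 start, with a second match nearer to it, and 106 bases before the HSPA1A start. Of the 26 list members with a promoter in the table, 10 (38.5%) held GAANNTTC within the window from 250 bases before to 50 after the start, against 6.87% of all 27305 promoters. The match is a description of the letters, not of binding. The share was 4.68% of the 10308 tested genes with a promoter in the table, 5.73% of such risen genes and 4.79% of such fallen genes. Because these 10308 are 72.7% of the 14184 tested genes, a check of the motif over tested or changed genes is void, and the list's own share rests on 26 of its 29 tested members.

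Other genes of protein turnover and synthesis rose by small amounts. For proteasome subunits, of 31 tested members 14 rose (45.2%) and 1 fell (3.23%), with a median log2 fold change of 0.105. The lid subunit gene PSMD3 (0.32 ± 0.042, edgeR adjusted p = 0.000141) and the base ATPase gene PSMC4 (0.23 ± 0.041, edgeR adjusted p = 0.00115) were among them. PSMD3 had 210.2, 218 and 192 CPM with both compounds, against 163, 163 and 172 CPM with DEX. PSMD7 fell (-0.12 ± 0.034). The risen count of proteasome subunits became 9 without combination replicate 1 and 7 without combination replicate 2. For proteasome subunits the fallen count moved to 0 without DEX replicate 2, combination replicate 1 or combination replicate 2.

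For ribosome biogenesis and nucleolus genes, of 28 tested members 16 rose (57.1%) and 0 fell (0%), with a median log2 fold change of 0.121. RRP12, a ribosome assembly factor gene, had 96.8, 102 and 90.5 CPM with both compounds, against 77.9, 76.0 and 77.9 CPM with DEX (0.32 ± 0.048, edgeR adjusted p = 0.000364). NOP58, a core protein of snoRNA particles, rose by 0.25 ± 0.04 and TCOF1, which supports transcription of ribosomal DNA, by 0.27 ± 0.045. Among ribosome biogenesis genes, the risen count was 10 without DEX replicate 1, combination replicate 1 or combination replicate 2.

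ER chaperone genes fell more often than they rose, and autophagy genes went both ways. For ER chaperones and ERAD, of 25 tested members 3 rose (12%) and 8 fell (32%), with a median log2 fold change of -0.0428. The risen share was near the 13.0% over all tested genes, and the fallen share was above the 13.5%. MANF, an ER stress-induced secreted factor gene, had 74.4, 77.8 and 81.9 CPM with both compounds, against 97.5, 97.5 and 97.8 CPM with DEX (-0.32 ± 0.038, edgeR adjusted p = 5.95e-05), with no overlap, and EDEM1, of ER-associated degradation, changed by -0.26 ± 0.06. The ER chaperone gene HSPA5 rose by 0.16 ± 0.044. Dropping 1 library turned the risen count of ER chaperones into 1 without DEX replicate 1 or combination replicate 2 and 0 without DEX replicate 3. The fallen count of ER chaperones became 3 without DEX replicate 2 or combination replicate 2. For autophagy and lysosome genes, of 20 tested members 5 rose (25%) and 4 fell (20%), with a median log2 fold change of -0.044. SQSTM1, the cargo receptor p62, had 399, 434 and 367 CPM with both compounds, against 264, 256 and 273 CPM with DEX (0.60 ± 0.047, edgeR adjusted p = 2.1e-06). LAMP1, a lysosomal membrane protein gene, and MCOLN1, a lysosomal cation channel gene, rose by 0.25 ± 0.032 and 0.51 ± 0.077. For autophagy genes the fallen count moved to 2 without DEX replicate 1 or DEX replicate 2, 1 without DEX replicate 3, combination replicate 1 or combination replicate 2 and 7 without combination replicate 3.

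For ATF4 and amino acid stress genes, of 28 tested members 9 rose (32.1%) and 5 fell (17.9%), with a median log2 fold change of 0.0498. PPP1R15A, also GADD34, the subunit that directs dephosphorylation of eIF2α, had 129, 174 and 109.7 CPM with both compounds, against 49.9, 50.1 and 49.6 CPM with DEX (1.46 ± 0.11, edgeR adjusted p = 2.02e-06). SLC7A5 and SLC3A2, the chains of a large neutral amino acid transporter, rose by 0.79 ± 0.073 and 0.61 ± 0.061. The SLC7A5 wells were at 249, 274 and 218 CPM with both compounds, against 154, 136 and 138 CPM with DEX. DDIT3, the transcription factor CHOP, rose by 0.43 ± 0.087, while TRIB3 (-0.32 ± 0.053) and DDIT4 (-0.62 ± 0.12), which are also known stress targets, fell. ATF4, CHAC1 and PSAT1 did not pass.

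Immediate-early genes rose, with the highest median of the 31 lists. For AP-1 and immediate-early genes, of 27 tested members 21 rose (77.8%) and 2 fell (7.41%), with a median log2 fold change of 0.59. The list's median in the combination wells was 0.548, 0.784 and 0.405 above the DEX mean. FOS, a partner of JUN in AP-1, had 24.1, 37.5 and 17.6 CPM with both compounds, against 1.31, 1.13 and 1.13 CPM with DEX (4.46 ± 0.28, edgeR adjusted p = 3.57e-07). JUN had 97.1, 116 and 77.4 CPM with both compounds, against 42.1, 44.1 and 41.6 CPM with DEX (1.18 ± 0.10, edgeR adjusted p = 3.01e-06). ATF3, a stress-induced bZIP factor gene, had 16.4, 20.8 and 15.9 CPM with both compounds, against 6.27, 6.47 and 6.67 CPM with DEX (1.45 ± 0.10, edgeR adjusted p = 1.12e-06). For these 3 genes the combination wells were all higher, with replicate 2 on top. EGR1, a zinc finger factor gene, had 3.5, 4.78 and 2.97 CPM with both compounds, against 0.464, 0.445 and 0.678 CPM with DEX (2.81 ± 0.30, edgeR adjusted p = 2.6e-05). The nuclear receptor genes NR4A1, NR4A2 and NR4A3 rose by 1.58 ± 0.23, 2.44 ± 0.33 and 2.44 ± 0.37. JUNB, IER3, ZFP36 and TRIB1 did not pass. KLF6 (-0.21 ± 0.036) and JUND (-0.16 ± 0.047) fell, the call of JUND being the one lost below. Among immediate-early genes, the fallen count was 1 without DEX replicate 1, DEX replicate 3, combination replicate 1 or combination replicate 2.

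The EGR1 promoter is shown because serum response factor, whose gene SRF rose by 0.22 ± 0.056, is known to bind the CArG boxes there. Capitals mark CArG boxes, on the plus strand of GRCh38.p14 (RefSeq).
EGR1, chr5:138465354-138465425: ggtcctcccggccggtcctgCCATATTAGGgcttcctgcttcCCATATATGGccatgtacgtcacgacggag
The first of the pair in this stretch starts 105 bases before the gene's start. A CArG box was present in 1.29% of all 27305 promoters and in 2 of the 21 immediate-early list members with a matched promoter (9.52%). The share was 1.09% of tested, 1.38% of risen and 1.37% of fallen genes with a promoter, a check that is void as stated for the heat shock motif.

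Of the feedback regulators of the MAPK pathway, more rose than fell. For DUSP and SPRY genes, of 21 tested members 6 rose (28.6%) and 2 fell (9.52%), with a median log2 fold change of 0.0733. EPHA2, a receptor tyrosine kinase gene that ERK signalling induces, had 346, 377 and 289.6 CPM with both compounds, against 235, 231 and 231 CPM with DEX (0.54 ± 0.066, edgeR adjusted p = 8.52e-05). DUSP16, a phosphatase gene, fell (-0.43 ± 0.074, edgeR adjusted p = 0.000976). The ERK targets DUSP4, DUSP5, DUSP6, SPRY4, ETV4 and ETV5 did not pass. Dropping 1 library turned the risen count of DUSP and SPRY genes into 3 without DEX replicate 2 or combination replicate 1, 2 without DEX replicate 3 and 1 without combination replicate 2. The fallen count of DUSP and SPRY genes became 1 without DEX replicate 2, DEX replicate 3, combination replicate 1 or combination replicate 2.

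Of the genes of matrix degradation, more rose than fell. For matrix proteases and the plasminogen system, of 19 tested members 11 rose (57.9%) and 4 fell (21.1%), with a median log2 fold change of 0.401. MMP1, interstitial collagenase, had 26.1, 26.2 and 15.6 CPM with both compounds, against 8.55, 7.88 and 7.76 CPM with DEX (1.48 ± 0.16, edgeR adjusted p = 2.68e-05). ADAMTS1, a protease of proteoglycans, had 239, 256 and 213 CPM with both compounds, against 156, 147 and 155 CPM with DEX (0.63 ± 0.053, edgeR adjusted p = 3.45e-06). SERPINB2, an inhibitor of plasminogen activators, had 1.36, 1.56 and 1.23 CPM with both compounds, against 0.193, 0.274 and 0.301 CPM with DEX (2.40 ± 0.23, edgeR adjusted p = 1.17e-05). Combination and DEX wells were apart for all 3. The urokinase gene PLAU and its receptor gene PLAUR rose by 0.59 ± 0.11 and 0.40 ± 0.059. PLAT, the tissue plasminogen activator gene, fell (-0.32 ± 0.064), as did MMP15 (-0.47 ± 0.068).

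The promoter stretch of MMP10 is shown because MMP10 and MMP3 had the largest rises of the list and AP-1 is known to act on stromelysin genes. Capitals mark TGANTCA, searched on both strands; MMP10 lies on the minus strand and the letters are those of that strand (RefSeq, GRCh38.p14).
MMP10, chr11:102780659-102780725: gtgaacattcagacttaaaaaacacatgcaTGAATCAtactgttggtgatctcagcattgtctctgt
The match starts 67 bases before the start. TGANTCA was present in 7.76% of all 27305 promoters and in 3 of the 11 members of this list with a matched promoter (27.3%). The share was 4.74% of tested, 6.02% of risen and 4.72% of fallen genes with a promoter, a check that is void as stated for the heat shock motif.

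For cytokines and chemokines, of 20 tested members 5 rose (25%) and 4 fell (20%), with a median log2 fold change of 0.0643. Beside CCL26 and IL11, IL24 had 2.88, 4.35 and 2.52 CPM with both compounds, against 0.967, 0.856 and 1.02 CPM with DEX (1.77 ± 0.23, edgeR adjusted p = 0.00011), and IL6 and LIF, both of the IL-6 family, rose by 0.53 ± 0.14 and 0.22 ± 0.057. The neutrophil chemokine gene CXCL1 had 2.64, 2.28 and 4.29 CPM with both compounds, against 5.65, 5.1 and 6.75 CPM with DEX (-0.90 ± 0.22, edgeR adjusted p = 0.00946), and CCL28 fell by 0.31. CXCL8, CCL2, IL1A and IL1B did not pass. For cytokines the fallen count moved to 2 without DEX replicate 2, combination replicate 1 or combination replicate 2 and 7 without combination replicate 3. For NF-kB subunits and feedback, of 18 tested members 11 rose (61.1%) and 1 fell (5.56%), with a median log2 fold change of 0.243. RELB and NFKB2, the subunits of the noncanonical pathway, and its kinase gene MAP3K14 rose by 0.79 ± 0.081, 0.59 ± 0.077 and 0.70 ± 0.068. MAP3K14 had 48.1, 50.6 and 40.1 CPM with both compounds, against 29.9, 27.6 and 27.9 CPM with DEX. The adhesion gene ICAM1 had 34.2, 34.3 and 39.8 CPM with both compounds, against 48.2, 44.8 and 46.7 CPM with DEX (-0.36 ± 0.055, edgeR adjusted p = 0.000361), and the inhibitor gene NFKBIA did not pass. Among NF-kB genes, the risen count was 7 without DEX replicate 1, DEX replicate 3, combination replicate 1 or combination replicate 2. Dropping 1 library turned the fallen count of NF-kB genes into 2 without DEX replicate 2 or combination replicate 3.

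For YAP and TEAD targets, of 24 tested members 10 rose (41.7%) and 2 fell (8.33%), with a median log2 fold change of 0.0896. CTGF and CYR61, the matricellular targets most used to read this pathway, had 112, 115 and 91.9 CPM with both compounds, against 74.9, 68.2 and 68.7 CPM with DEX (0.59 ± 0.073, edgeR adjusted p = 9.19e-05) and 366, 365 and 318 CPM with both compounds, against 245, 239 and 249.6 CPM with DEX (0.52 ± 0.064, edgeR adjusted p = 9.37e-05). RBMS3 fell (-0.42 ± 0.079). The risen count of YAP and TEAD targets became 6 without DEX replicate 2. For mesenchymal and matrix genes, of 24 tested members 10 rose (41.7%) and 6 fell (25%), with a median log2 fold change of 0.00592. VIM, the intermediate filament of mesenchymal cells, had 1045, 1292 and 1083 CPM with both compounds, against 884, 869 and 805 CPM with DEX (0.42 ± 0.062, edgeR adjusted p = 0.000302). LAMB3, a laminin chain gene, rose by 0.59 ± 0.064 and TNC, tenascin C, by 0.50 ± 0.09. FN1, fibronectin, had 314, 305 and 419.5 CPM with both compounds, against 585, 562 and 552 CPM with DEX (-0.71 ± 0.092, edgeR adjusted p = 0.000125), and LOX, which crosslinks collagen, 34.6, 32.3 and 43.8 CPM with both compounds, against 61.9, 61.6 and 63.9 CPM with DEX (-0.75 ± 0.088, edgeR adjusted p = 6.09e-05). VIM wells were all higher and FN1 and LOX wells all lower with both compounds, so the list had no common direction.

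NRF2-linked genes of antioxidant defence, NADPH supply and iron storage rose. For this list, of 29 tested members 19 rose (65.5%) and 0 fell (0%), with a median log2 fold change of 0.206. HMOX1, haem oxygenase 1, had 29.8, 37.3 and 27.0 CPM with both compounds, against 13.1, 11.8 and 13.7 CPM with DEX (1.28 ± 0.10, edgeR adjusted p = 1.83e-06). NQO1, a quinone reductase, had 346, 338 and 320.0 CPM with both compounds, against 218, 217 and 217 CPM with DEX (0.62 ± 0.033, edgeR adjusted p = 5.84e-08). TXNRD1, thioredoxin reductase 1, had 961, 891 and 850.2 CPM with both compounds, against 691, 699 and 688 CPM with DEX (0.38 ± 0.041, edgeR adjusted p = 2.91e-05). All 3 had higher values in every combination well, and NQO1 was the most even across wells. The ferritin light chain gene FTL had 2044, 2232 and 1823 CPM with both compounds, against 1257, 1205 and 1493 CPM with DEX (0.63 ± 0.079, edgeR adjusted p = 0.000104) and the heavy chain gene FTH1 rose by 0.40 ± 0.052. OSGIN1 and AKR1C1, both known NRF2 targets, rose by 0.87 ± 0.14 and 0.87 ± 0.25. NFE2L2, which encodes NRF2, was at 102, 103 and 99.8 CPM with both compounds, against 96.7, 96.7 and 99.3 CPM with DEX and did not pass (0.058 ± 0.038, edgeR adjusted p = 0.286). Without combination replicate 3, 2 members fell. For metallothioneins and zinc export, of 8 tested members 0 rose (0%) and 1 fell (12.5%), with a median log2 fold change of -0.0818. That fallen share was near the 13.5% over all tested genes. For 3 of the 8 the effect of SH4-54 was lower with DEX than without it, against 1.46% of all tested genes. With SH4-54 alone 1 member rose, and the list's median log2 fold change was 0.136. MT1X had 60.8, 53.9 and 70.4 CPM with both compounds, against 93.2, 93.3 and 80.5 CPM with DEX (-0.53 ± 0.095, edgeR adjusted p = 0.00123), and 13.5, 12.9 and 16.4 CPM with SH4-54 alone and 11.3, 13.5 and 13.1 CPM with no drug.

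The largest falls were smaller than the largest rises, and some were in genes near 0 without DEX. IP6K3, an inositol phosphate kinase gene, had 2.91, 1.63 and 5.88 CPM with both compounds, against 11.3, 10.6 and 10.4 CPM with DEX (-1.59 ± 0.28, edgeR adjusted p = 0.00112). ALOX15B, a lipoxygenase gene, had 3.23, 2.17 and 7.85 CPM with both compounds, against 12.5, 11.4 and 9.53 CPM with DEX (-1.29 ± 0.32, edgeR adjusted p = 0.0101). MAP2, of microtubule-associated proteins, had 10.2, 8.33 and 17.6 CPM with both compounds, against 28.2, 29.0 and 28.0 CPM with DEX (-1.22 ± 0.19, edgeR adjusted p = 0.000535). Replicate 3 was the combination well nearest to DEX for all 3. No combination well reached the DEX range, as the choice of these genes required. In the wells without DEX, IP6K3 and ALOX15B did not exceed 0.0626 CPM and MAP2 was at 0.653, 0.676 and 0.309 CPM with SH4-54 alone and 0.689, 0.232 and 0.492 CPM with no drug. C3, the central complement component, had 3.3, 3.59 and 5.49 CPM with both compounds, against 10.2, 8.08 and 9.76 CPM with DEX (-1.15 ± 0.20, edgeR adjusted p = 0.000915). SLPI, an antiprotease, had 11.3, 9.89 and 19.9 CPM with both compounds, against 28.1, 28.8 and 30.2 CPM with DEX (-1.06 ± 0.18, edgeR adjusted p = 0.000732). HPGD, which degrades prostaglandins, and ETNK2, an ethanolamine kinase gene, fell by 1.10 ± 0.22 and 1.05 ± 0.14. LIPG (endothelial lipase) and ST8SIA4 (a polysialyltransferase) changed by -1.08 ± 0.16 and -1.06 ± 0.13. LINC01123, the largest fall by fold, had 3.3, 3.08 and 2.94 CPM with both compounds, against 3.4, 27.4 and 3.99 CPM with DEX (-1.93 ± 0.66, edgeR adjusted p = 0.044). Its DEX replicate 2 was far above the other DEX wells, and without it the log2 fold change was -0.26, with an edgeR adjusted p of 0.721. The call for LINC01123 was also lost without combination replicates 1, 2 or 3, at edgeR adjusted p values of 0.0951, 0.115 and 0.0802.

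**Figure D2:**
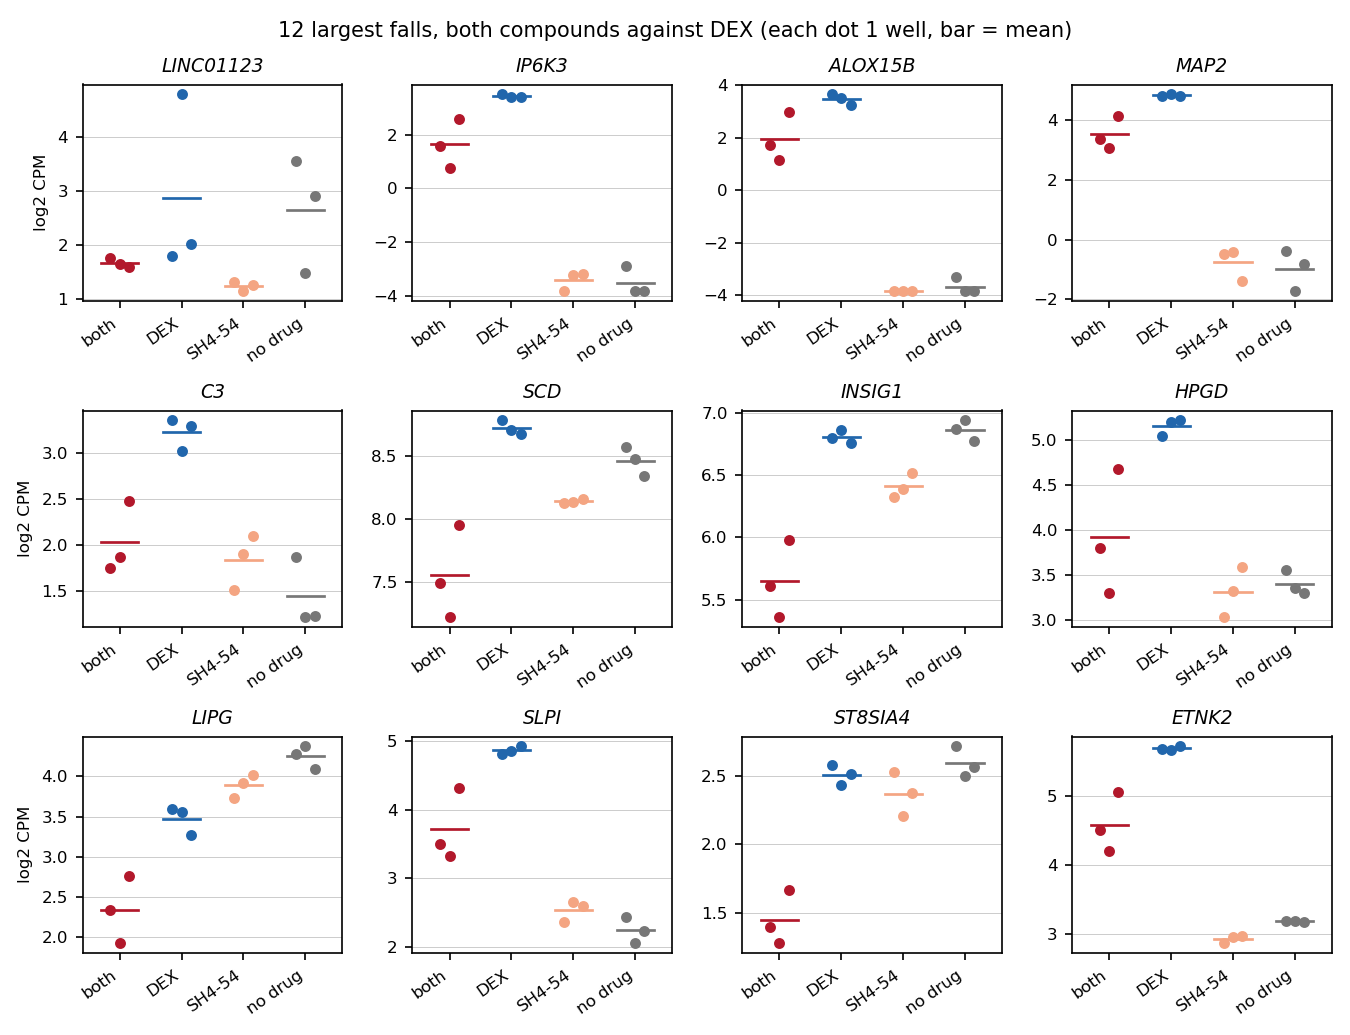
The 12 genes with the largest falls, 1 panel each: log2 CPM (prior count of 2) in each well, with both compounds, DEX, SH4-54 alone and no drug from left to right; dots are wells and bars group means. The 3 combination wells lie below the 3 DEX wells in every panel, as the choice of genes required. The mean of LINC01123 with DEX is set by 1 well.

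Sterol and fatty acid genes fell. For cholesterol synthesis and uptake, of 26 tested members 0 rose (0%) and 24 fell (92.3%), with a median log2 fold change of -0.532, against 13.5% fallen over all tested genes. The list's median in the combination wells was -0.516, -0.652 and -0.38 relative to the DEX mean. SQLE, squalene epoxidase, had 29.7, 27.2 and 34.4 CPM with both compounds, against 47.2, 46.3 and 42.4 CPM with DEX (-0.57 ± 0.07, edgeR adjusted p = 9.04e-05). FDFT1, squalene synthase, had 104, 93.5 and 113 CPM with both compounds, against 165, 170.1 and 175 CPM with DEX (-0.72 ± 0.054, edgeR adjusted p = 1.79e-06). MSMO1, a sterol oxidase, had 81.9, 68.2 and 92.6 CPM with both compounds, against 144, 146 and 149 CPM with DEX (-0.85 ± 0.079, edgeR adjusted p = 7.01e-06). Every combination well was below every DEX well for these enzymes, lowest in replicate 2. INSIG1, which holds SREBP precursors in the ER, had 48.8, 41.0 and 62.9 CPM with both compounds, against 111, 116 and 108 CPM with DEX (-1.13 ± 0.11, edgeR adjusted p = 8.35e-06). SREBF2, the gene of the factor that drives this list, had 34.6, 36.2 and 39.7 CPM with both compounds, against 52.9, 44.9 and 49.5 CPM with DEX (-0.41 ± 0.065, edgeR adjusted p = 0.000517). PMVK and SCAP did not pass.

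The INSIG1 promoter stretch is shown because INSIG1 was the most lowered member and a known SREBP target. Capitals mark a match on the opposite strand to CACNCCAC, a loose form of the sterol regulatory element, searched on both strands (RefSeq, GRCh38.p14, plus strand).
INSIG1, chr7:155297640-155297707: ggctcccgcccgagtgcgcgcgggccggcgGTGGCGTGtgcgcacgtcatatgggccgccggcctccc
It starts 208 bases before the start. CACNCCAC was present in 5.74% of all 27305 promoters and in 3 of the 19 cholesterol list members with a matched promoter (15.8%). The share was 5.52% of tested, 5% of risen and 5.88% of fallen genes with a promoter, a check that is void as stated for the heat shock motif.

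For fatty acid synthesis and desaturation, of 18 tested members 1 rose (5.56%) and 15 fell (83.3%), with a median log2 fold change of -0.229. SCD, stearoyl-CoA desaturase, had 179.6, 149 and 248 CPM with both compounds, against 441, 418 and 408 CPM with DEX (-1.13 ± 0.12, edgeR adjusted p = 2.96e-05). FADS2, a desaturase of polyunsaturated fatty acids, had 176, 168 and 186 CPM with both compounds, against 252, 251 and 262 CPM with DEX (-0.53 ± 0.04, edgeR adjusted p = 1.68e-06). ACSS2, which makes acetyl-CoA from acetate, fell by 0.73 ± 0.081. FADS1 changed by -0.34 ± 0.036 and LPIN1, a phosphatidate phosphatase gene, by -0.56 ± 0.051. The groups were apart in each of these genes. FASN and GPAM did not pass. ME1, the 1 risen member (0.14 ± 0.05), was not called when any 1 of the 6 libraries was left out. For cholesterol efflux and LXR targets, of 10 tested members 0 rose (0%) and 6 fell (60%), with a median log2 fold change of -0.221. ABCA1, the cholesterol exporter, had 80.3, 63.4 and 97.1 CPM with both compounds, against 134, 138 and 128 CPM with DEX (-0.73 ± 0.10, edgeR adjusted p = 0.000244). MYLIP, a ubiquitin ligase gene, and SREBF1, both LXR targets, fell by 0.43 ± 0.087 and 0.50 ± 0.064.

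Interferon-stimulated genes fell. For this list, of 36 tested members 1 rose (2.78%) and 20 fell (55.6%), with a median log2 fold change of -0.298. IFIT1, which binds viral RNA caps, had 171, 188 and 215 CPM with both compounds, against 319.6, 317 and 329 CPM with DEX (-0.75 ± 0.068, edgeR adjusted p = 6.23e-06). IFIT3 had 196, 202 and 226 CPM with both compounds, against 304, 311 and 301 CPM with DEX (-0.55 ± 0.046, edgeR adjusted p = 2.93e-06). OASL, a relative of the oligoadenylate synthetases, had 54.8, 58.9 and 81.0 CPM with both compounds, against 126, 125 and 135 CPM with DEX (-0.98 ± 0.11, edgeR adjusted p = 3.88e-05). No combination well reached a DEX well for these genes, which were chosen for their small p, and replicate 3 was the nearest. HERC5, the ligase that attaches ISG15, fell by 0.47 ± 0.054, and IFI44L and DDX60 changed by -0.97 ± 0.17 and -0.77 ± 0.10. In the other wells IFIT1 was at 238, 269 and 260.0 CPM with SH4-54 alone and 328, 295 and 321 CPM with no drug. STAT2, which transduces the interferon signal, had 65.2, 57.3 and 70.9 CPM with both compounds, against 80.6, 83.7 and 84.5 CPM with DEX (-0.36 ± 0.066, edgeR adjusted p = 0.00134). IRF9 and IRF1 did not pass. IRF7 was the 1 risen member (0.19 ± 0.062). For interferon-stimulated genes the risen count moved to 0 without DEX replicate 1, DEX replicate 2, DEX replicate 3, combination replicate 1 or combination replicate 2.

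The IFIT1 promoter stretch is shown because IFIT1 is a textbook interferon-induced gene and was lower in all 3 combination wells. Capitals mark TTCNNTTTC, a core of the interferon-stimulated response element searched on both strands (RefSeq, GRCh38.p14, plus strand).
IFIT1, chr10:89392483-89392554: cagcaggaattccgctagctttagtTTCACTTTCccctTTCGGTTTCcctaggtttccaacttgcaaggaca
The first of the pair starts 115 bases before the start. TTCNNTTTC was present in 8.29% of all 27305 promoters and in 18 of the 27 interferon list members with a matched promoter (66.7%). Some of these 18 did not pass. The share was 6.33% of tested, 6.67% of risen and 5.95% of fallen genes with a promoter, a check that is void as stated for the heat shock motif. Whether the motif bears on the fall was not tested.

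Among genes tied to STAT3 and STAT5, the stated targets of SH4-54, STAT3 targets fell more often than they rose. STAT5 targets rose and fell in equal numbers. For STAT3 targets, of 28 tested members 5 rose (17.9%) and 11 fell (39.3%), with a median log2 fold change of -0.0845. Over all tested genes, 13.0% rose and 13.5% fell. HIF1A, the hypoxia factor, had 711, 619 and 787 CPM with both compounds, against 933, 949 and 934 CPM with DEX (-0.41 ± 0.061, edgeR adjusted p = 0.000305). MCL1, which blocks apoptosis, had 480.5, 455 and 517 CPM with both compounds, against 549.8, 549.5 and 532 CPM with DEX (-0.17 ± 0.039, edgeR adjusted p = 0.00685). The acute-phase gene LBP had 0.622, 0.58 and 2.02 CPM with both compounds, against 3.37, 3.94 and 2.52 CPM with DEX (-1.53 ± 0.34, edgeR adjusted p = 0.00458), and SAA1, SAA2 and NNMT changed by -0.64 ± 0.12, -0.71 ± 0.14 and -0.46 ± 0.11. SOCS3, the feedback inhibitor most closely tied to STAT3, had 82.1, 82.3 and 74.8 CPM with both compounds, against 66.2, 72.2 and 71.6 CPM with DEX (0.19 ± 0.043, edgeR adjusted p = 0.00631). FOS and CCND1 (0.22 ± 0.034) also rose, and MYC, PIM1, CEBPB, CEBPD and BCL3 did not pass. For STAT5 targets, of 9 tested members 2 rose (22.2%) and 2 fell (22.2%), with a median log2 fold change of 0.0563. SOCS2 had 40.4, 45.1 and 40.1 CPM with both compounds, against 35.5, 34.9 and 36.7 CPM with DEX (0.23 ± 0.048, edgeR adjusted p = 0.00295), while CISH was at 0.777, 0.761 and 0.925 CPM with both compounds, against 0.735, 0.651 and 0.603 CPM with DEX and did not pass (edgeR adjusted p = 0.375). Among STAT5 targets, the fallen count was 1 without DEX replicate 1, DEX replicate 2, combination replicate 1 or combination replicate 2. The STAT site TTCNNNGAA was present in 7.88% of all 27305 promoters. It was in 2 of the 18 STAT3 targets (11.1%) and 2 of the 6 STAT5 targets (33.3%) with a matched promoter. The share was 6.5% of tested, 6.31% of risen and 7.05% of fallen genes with a promoter, a check that is void as stated for the heat shock motif.

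For the STAT and JAK genes themselves, of 10 tested members 1 rose (10%) and 4 fell (40%), with a median log2 fold change of -0.0989. STAT3 had 203, 194 and 220.4 CPM with both compounds, against 229, 231 and 225 CPM with DEX (-0.15 ± 0.04, edgeR adjusted p = 0.0127), and its edgeR adjusted p was 0.0597 without combination replicate 2. STAT5A had 12.2, 12.1 and 12.5 CPM with both compounds, against 9.9, 9.86 and 10.2 CPM with DEX (0.30 ± 0.079, edgeR adjusted p = 0.0128). JAK2 had 17.6, 15.1 and 22.1 CPM with both compounds, against 24.3, 26.5 and 23.9 CPM with DEX (-0.44 ± 0.10, edgeR adjusted p = 0.00686). STAT3 and JAK2 were lower and STAT5A higher in every combination well. STAT5B was at 46.6, 51.5 and 51.0 CPM with both compounds, against 50.9, 49.1 and 49.1 CPM with DEX, with overlapping wells and an edgeR adjusted p of 0.977. Dropping 1 library turned the fallen count of STAT and JAK genes into 2 without combination replicate 2.

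Complement and acute-phase genes fell. For this list, of 12 tested members 2 rose (16.7%) and 9 fell (75%), with a median log2 fold change of -0.551, the lowest median of the 31 lists. Besides C3 and SLPI, CD46, a membrane inhibitor of complement, had 329, 296 and 352 CPM with both compounds, against 395, 419 and 407 CPM with DEX (-0.32 ± 0.048, edgeR adjusted p = 0.000363), and C1R changed by -0.59 ± 0.14. CD55, another membrane inhibitor, rose instead, with 736, 718 and 634 CPM with both compounds, against 548, 542 and 551 CPM with DEX (0.35 ± 0.046, edgeR adjusted p = 0.00014). All combination wells of CD55 were higher and all of CD46 lower. SERPINA3, SAA1 and SAA2 stand in this list and among the STAT3 targets. SERPINA3 had 0.117, 0.217 and 0.252 CPM with both compounds, against 0.464, 0.548 and 0.414 CPM with DEX, and its call was lost without DEX replicate 2 and without combination replicates 1 and 2 (edgeR adjusted p of 0.0824, 0.0773 and 0.0525).

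Glucocorticoid-induced genes were mixed, with more lower than higher. For this list, of 30 tested members 5 rose (16.7%) and 14 fell (46.7%), with a median log2 fold change of -0.198. FKBP5, a cochaperone of the receptor, had 202, 180.5 and 271 CPM with both compounds, against 325, 344 and 309.7 CPM with DEX (-0.58 ± 0.10, edgeR adjusted p = 0.000963), and 54.0, 56.8 and 52.3 CPM with SH4-54 alone and 53.7, 55.5 and 52.4 CPM with no drug. Its combination wells were thus below DEX and far above the wells without DEX. TSC22D3, the glucocorticoid-induced leucine zipper, was at 77.7, 61.3 and 87.5 CPM with both compounds, against 85.8, 87.8 and 84.0 CPM with DEX and did not pass (-0.18 ± 0.10, edgeR adjusted p = 0.188), although without combination replicate 3 it did (-0.32, edgeR adjusted p = 0.0131). STOM, a membrane scaffold gene, had 58.4, 47.9 and 78.9 CPM with both compounds, against 112, 117 and 113 CPM with DEX (-0.88 ± 0.12, edgeR adjusted p = 0.00013). KLF9, a zinc finger factor gene, had 8.31, 5.91 and 10.3 CPM with both compounds, against 13.2, 14.9 and 12.6 CPM with DEX (-0.72 ± 0.15, edgeR adjusted p = 0.00354). ITGA5, the fibronectin receptor chain, and SDPR, of caveolae, changed by -0.47 ± 0.065 and -0.55 ± 0.07. SGK1, a kinase gene that glucocorticoids induce, moved the other way, with 90.5, 102 and 70.2 CPM with both compounds, against 51.7, 54.4 and 51.0 CPM with DEX (0.74 ± 0.10, edgeR adjusted p = 0.000142), and 25.4, 23.5 and 21.6 CPM with SH4-54 alone and 20.4, 20.1 and 21.8 CPM with no drug. DUSP1, TNFAIP3, BIRC3 and CRISPLD2 also rose, the first by 0.15 ± 0.046. PER1, ANGPTL4, PDK4 and ZFP36 did not pass. NR3C1, the receptor gene, was at 285, 271 and 272 CPM with both compounds, against 278, 272 and 276 CPM with DEX, with overlapping wells and a log2 fold change of 0.0047 ± 0.028 whose sign changed with DESeq2 size factors (edgeR adjusted p = 0.924). The risen count of glucocorticoid-induced genes became 2 without DEX replicate 1, DEX replicate 3 or combination replicate 1 and 3 without combination replicate 2.

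Of the cell cycle lists, the replication list had a larger share of risen members than the 13.0% over all tested genes, and the mitotic list had shares near those over all genes. For DNA replication and G1/S, of 32 tested members 12 rose (37.5%) and 1 fell (3.12%), with a median log2 fold change of 0.0846. CCNE1, cyclin E1, had 24.2, 25.9 and 20.6 CPM with both compounds, against 17.3, 18.5 and 18.4 CPM with DEX (0.38 ± 0.073, edgeR adjusted p = 0.0019). CDT1, a licensing factor, rose by 0.33 ± 0.073 and the helicase subunit MCM2 by 0.18 ± 0.043. E2F1, which drives these genes, had 98.1, 98.7 and 92.4 CPM with both compounds, against 85.5, 83.8 and 86.6 CPM with DEX (0.18 ± 0.035, edgeR adjusted p = 0.00221). For replication genes the risen count moved to 7 without DEX replicate 1 or combination replicate 1 and 5 without combination replicate 2. Among replication genes, the fallen count was 0 without DEX replicate 2 or combination replicate 2. For G2/M and mitosis, of 28 tested members 5 rose (17.9%) and 3 fell (10.7%), with a median log2 fold change of 0.0511, shares near the 13.0% and 13.5% over all tested genes; with DESeq2 size factors 2 rose. Among the members that passed, CENPE, a kinetochore motor, had 164, 174 and 171 CPM with both compounds, against 189, 192 and 181 CPM with DEX (-0.14 ± 0.033, edgeR adjusted p = 0.00612). Dropping 1 library turned the risen count of mitotic genes into 2 without DEX replicate 1 or DEX replicate 3, 1 without DEX replicate 2 or combination replicate 1, 0 without combination replicate 2 and 8 without combination replicate 3. The fallen count of mitotic genes became 1 without DEX replicate 2. For CDK inhibitors and D cyclins, of 11 tested members 2 rose (18.2%) and 4 fell (36.4%), with a median log2 fold change of -0.0481. CDKN1B, the inhibitor p27, had 55.0, 53.1 and 54.1 CPM with both compounds, against 61.5, 63.6 and 60.8 CPM with DEX (-0.20 ± 0.034, edgeR adjusted p = 0.000963), and CCND1, cyclin D1, had 485, 482 and 456 CPM with both compounds, against 421, 399.5 and 398 CPM with DEX (0.22 ± 0.034, edgeR adjusted p = 0.000384). For CDK inhibitors and D cyclins the risen count moved to 1 without DEX replicate 2 or combination replicate 1. Among CDK inhibitors and D cyclins, the fallen count was 2 without DEX replicate 1, DEX replicate 2 or combination replicate 2.

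In the BCL2 family, of 14 tested members 2 rose (14.3%) and 2 fell (14.3%), with a median log2 fold change of -0.0148, shares near the 13.0% and 13.5% over all tested genes, so the counts show nothing particular to the family. Of its single members, the proapoptotic BAX had 44.8, 51.0 and 42.9 CPM with both compounds, against 37.5, 34.7 and 35.7 CPM with DEX (0.36 ± 0.059, edgeR adjusted p = 0.00063) and PMAIP1, NOXA, rose by 0.18 ± 0.036, while the antiapoptotic BCL2L1 changed by -0.13 ± 0.032. BBC3, BCL2L11 and BCL2 did not pass. For nuclear-encoded oxidative phosphorylation, of 30 tested members 1 rose (3.33%) and 5 fell (16.7%), with a median log2 fold change of -0.00611. The fallen share was near the 13.5% over all tested genes and the risen share below the 13.0%. COX6C, the 1 risen member, had 75.5, 79.5 and 77.4 CPM with both compounds, against 66.3, 69.8 and 68.6 CPM with DEX. Dropping 1 library turned the risen count of respiratory chain genes into 0 without combination replicate 2. The fallen count of respiratory chain genes became 1 without DEX replicate 1, DEX replicate 2 or combination replicate 2 and 0 without DEX replicate 3. For hypoxia and glycolysis, of 24 tested members 3 rose (12.5%) and 7 fell (29.2%), with a median log2 fold change of -0.0698. PGK1, a glycolytic kinase, had 634, 614 and 661 CPM with both compounds, against 768, 760.1 and 747 CPM with DEX (-0.25 ± 0.033, edgeR adjusted p = 0.000134), and EGLN3, a prolyl hydroxylase that targets HIF, fell by 0.39 ± 0.075. ADM, adrenomedullin, rose by 0.53 ± 0.072. For hypoxia and glycolysis genes the risen count moved to 1 without DEX replicate 2, DEX replicate 3 or combination replicate 2.

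For luminal epithelial markers, of 18 tested members 1 rose (5.56%) and 9 fell (50%), with a median log2 fold change of -0.197. The keratin genes KRT8 and KRT19 had 405, 414 and 416 CPM with both compounds, against 492, 483 and 519.8 CPM with DEX (-0.27 ± 0.036, edgeR adjusted p = 0.00012) and 294, 298 and 312 CPM with both compounds, against 348, 352 and 359 CPM with DEX (-0.23 ± 0.036, edgeR adjusted p = 0.000532). AGR2, a secretory pathway isomerase of luminal cells, had 14.6, 14.3 and 15.6 CPM with both compounds, against 22.3, 24.8 and 23.0 CPM with DEX (-0.66 ± 0.10, edgeR adjusted p = 0.000404), and CDH1, E-cadherin, 7.11, 5.29 and 11.8 CPM with both compounds, against 15.1, 14.5 and 12.9 CPM with DEX (-0.79 ± 0.19, edgeR adjusted p = 0.00779). All were lower in every combination well. TFF1, a trefoil factor, rose, with 3.19, 4.35 and 2.24 CPM with both compounds, against 0.542, 0.685 and 0.452 CPM with DEX (2.50 ± 0.30, edgeR adjusted p = 7.06e-05). FOXA1, GATA3, ELF3 and ERBB3 did not pass.

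By difference in CPM, the rises were led by THBS1, thrombospondin 1, with 11790, 11180 and 11050 CPM with both compounds, against 9994, 9618 and 10030 CPM with DEX (0.20 ± 0.042, edgeR adjusted p = 0.00337), then FTL, ACTG1 (0.12 ± 0.032), FLNA (0.22 ± 0.039) and EEF2 (0.37 ± 0.046). FLNA crosslinks actin and EEF2 moves the ribosome along the message. The falls were led by PEG10, a retrotransposon-derived gene, with 414, 355 and 525 CPM with both compounds, against 865, 783 and 808 CPM with DEX (-0.92 ± 0.11, edgeR adjusted p = 7.03e-05), and CPD, a carboxypeptidase gene, with 725, 628 and 1017 CPM with both compounds, against 1168, 1160.0 and 1088 CPM with DEX (-0.53 ± 0.12, edgeR adjusted p = 0.00476). ALCAM, a cell adhesion gene, had 1141, 1034 and 1195 CPM with both compounds, against 1438, 1473 and 1449 CPM with DEX (-0.37 ± 0.043, edgeR adjusted p = 5.65e-05). The groups were apart in all of these, as the choice of these genes required. LDHA and ANXA2 completed the 5 falls, at -0.23 ± 0.059 and -0.11 ± 0.034. The edgeR adjusted p of ACTG1 was 0.0557 without DEX replicate 1. That of LDHA was 0.0506 to 0.0576 without DEX replicate 2 or combination replicate 1 or 2, and that of ANXA2 0.0582 to 0.0912 without each library except combination replicate 3.

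**Figure D3:**
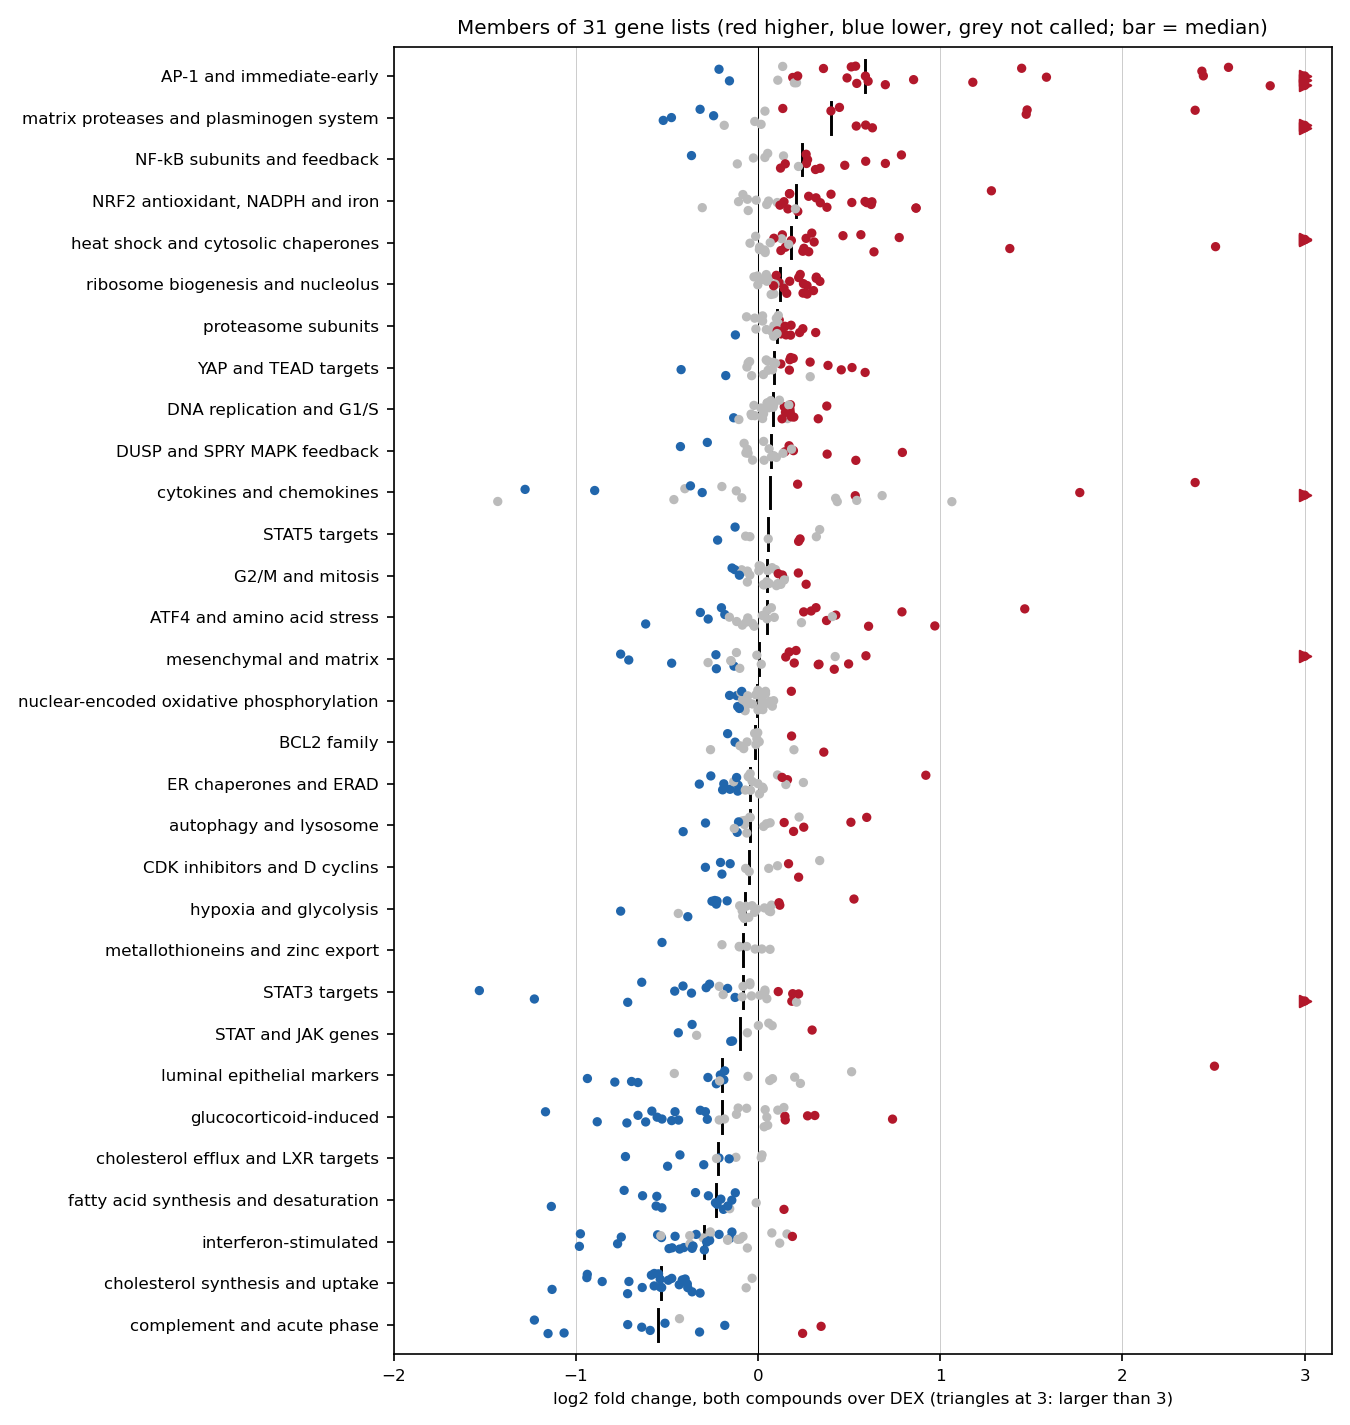
Log2 fold change of both compounds over DEX (horizontal axis) for every tested member of the 31 gene lists (rows, ordered by median): red dots rose, blue fell, grey did not pass, bars are list medians and triangles mark values above 3. Medians run from -0.551 for complement and acute-phase genes and -0.532 for cholesterol synthesis to 0.59 for immediate-early genes.

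SH4-54 alone changed far fewer genes than SH4-54 added to DEX. Against no drug, 38 genes rose (0.268%) and 47 fell (0.331%), and these 6 libraries are other than those of the combination and DEX groups. Their sum, 85, was 26 without no-drug replicate 2, 35 without no-drug replicate 3, 55 without no-drug replicate 1, and 48 and 47 without SH4-54 replicates 1 and 2. Of the 38 risen genes, 28 also rose and 0 fell when SH4-54 was added to DEX, against 13.0% risen over all tested genes. Their median log2 fold changes were 0.392 with DEX and 0.439 without. Of the 47 fallen genes, 35 also fell and 2 rose with DEX, against 13.5% fallen over all tested genes. Their medians were -0.248 with DEX and -0.241 without. Both sets were chosen by passing without DEX, which can enlarge their medians there, so these medians do not compare the size of the effects. Across all tested genes, which are not independent, the log2 fold changes of SH4-54 with and without DEX had a Pearson r of 0.416. Of the 12 largest rises, 6 also passed with SH4-54 alone: HSPA6, ARC, FOSB, MMP3, CCL26 and FOS. HSPA6 had 25.4, 27.1 and 19.4 CPM with SH4-54 alone and 0.501, 0.265 and 0.457 CPM with no drug (5.86 ± 0.72, edgeR adjusted p = 0.00118), and FOS 7.36, 6.98 and 4.75 CPM with SH4-54 alone and 1.85, 1.66 and 1.69 CPM with no drug (1.88 ± 0.29, edgeR adjusted p = 0.00849). HMOX1 and NQO1 of the NRF2 list rose by 0.61 ± 0.10 and 0.45 ± 0.033. None of the 12 largest falls passed with SH4-54 alone, by edgeR. With only 0.331% of tested genes fallen there, this does not set the largest falls apart from other genes. Some of them, such as IP6K3 and ALOX15B, were near the floor without DEX and had no room to fall.

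The test of the difference, the interaction, asks whether SH4-54 acted differently with DEX than without. It was higher with DEX for 346 genes (2.44%) and lower for 207 (1.46%). Of these, 533 also passed in the same direction for both compounds against DEX, where 13.0% of tested genes rose and 13.5% fell. The interaction contains that same difference between combination and DEX wells, so this agreement is largely built in and is no separate support. Among the 12 largest rises, 7 passed the interaction: CCL26, FOS, SNAI1, IL11, RELN, RASD1 and RGS4. IL11 differed by 2.14 ± 0.25, edgeR adjusted p = 0.000575, and RELN by 1.98 ± 0.18, edgeR adjusted p = 0.00019. HSPA6 (3.51 ± 1.87, edgeR adjusted p = 0.303) and ARC (2.27 ± 1.17, edgeR adjusted p = 0.288) did not pass, so a larger effect with DEX is not shown for them. Of the 12 largest falls, 5 passed: ST8SIA4, SLPI, INSIG1, SCD and C3. The largest rises and falls were chosen by the difference between combination and DEX wells, which raises the number passing here. Cholesterol synthesis had the most members among the lists, 16 of 26, all lower with DEX, and FDFT1 differed by -0.51 ± 0.077, edgeR adjusted p = 0.00432. Immediate-early genes had 8 members higher, heat shock genes 7 higher, and interferon-stimulated and glucocorticoid-induced genes 7 lower each, with SGK1 the 1 glucocorticoid-induced gene higher. Mesenchymal and matrix genes had 6 higher and 3 lower, and fatty acid genes 6 lower.

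The interaction counts depended on single libraries. Those higher with DEX were 178, 135 and 175 without DEX replicates 1, 2 and 3, 200, 192 and 833 without combination replicates 1, 2 and 3, 169 and 148 without no-drug replicates 2 and 3, and 141 and 170 without SH4-54 replicates 2 and 3. Those lower with DEX were 80, 69 and 79 without the DEX replicates in the same order, 96, 111 and 1213 without the combination replicates, 128, 69 and 70 without the no-drug replicates, and 68 and 85 without SH4-54 replicates 2 and 3.

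**Figure D4:**
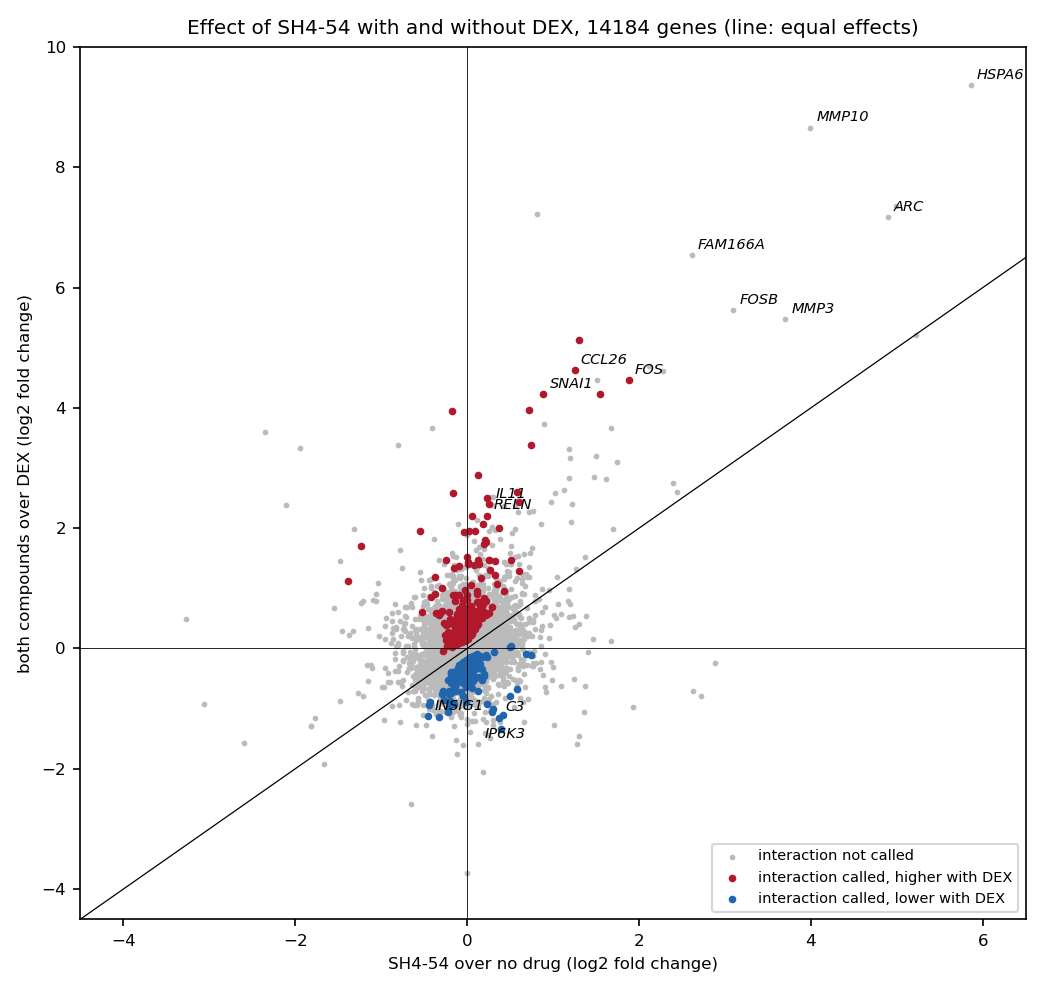
Log2 fold change of both compounds over DEX (vertical axis) against that of SH4-54 over no drug (horizontal axis) for 14184 genes; grey dots did not pass the interaction, red dots were higher and blue dots lower with DEX, and the line marks equal effects. Most red dots lie near 0 on the horizontal axis, while HSPA6 and ARC lie far out on both axes and are grey.

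List medians are set side by side here with and without DEX, with no test of a list. Immediate-early genes stood at 0.548, 0.784 and 0.405 in the combination wells relative to the DEX mean, against a median log2 fold change of 0.184 for SH4-54 alone. Cholesterol genes had a median of -0.532 with DEX and -0.189 without, and interferon-stimulated genes -0.298 and -0.123. Heat shock genes had 0.183 with DEX and 0.0167 without, complement genes -0.551 and -0.0218, and NRF2 genes 0.206 and 0.142. NRF2 genes were the list with most members raised by SH4-54 alone, 6 of 29.

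**Figure D5:**
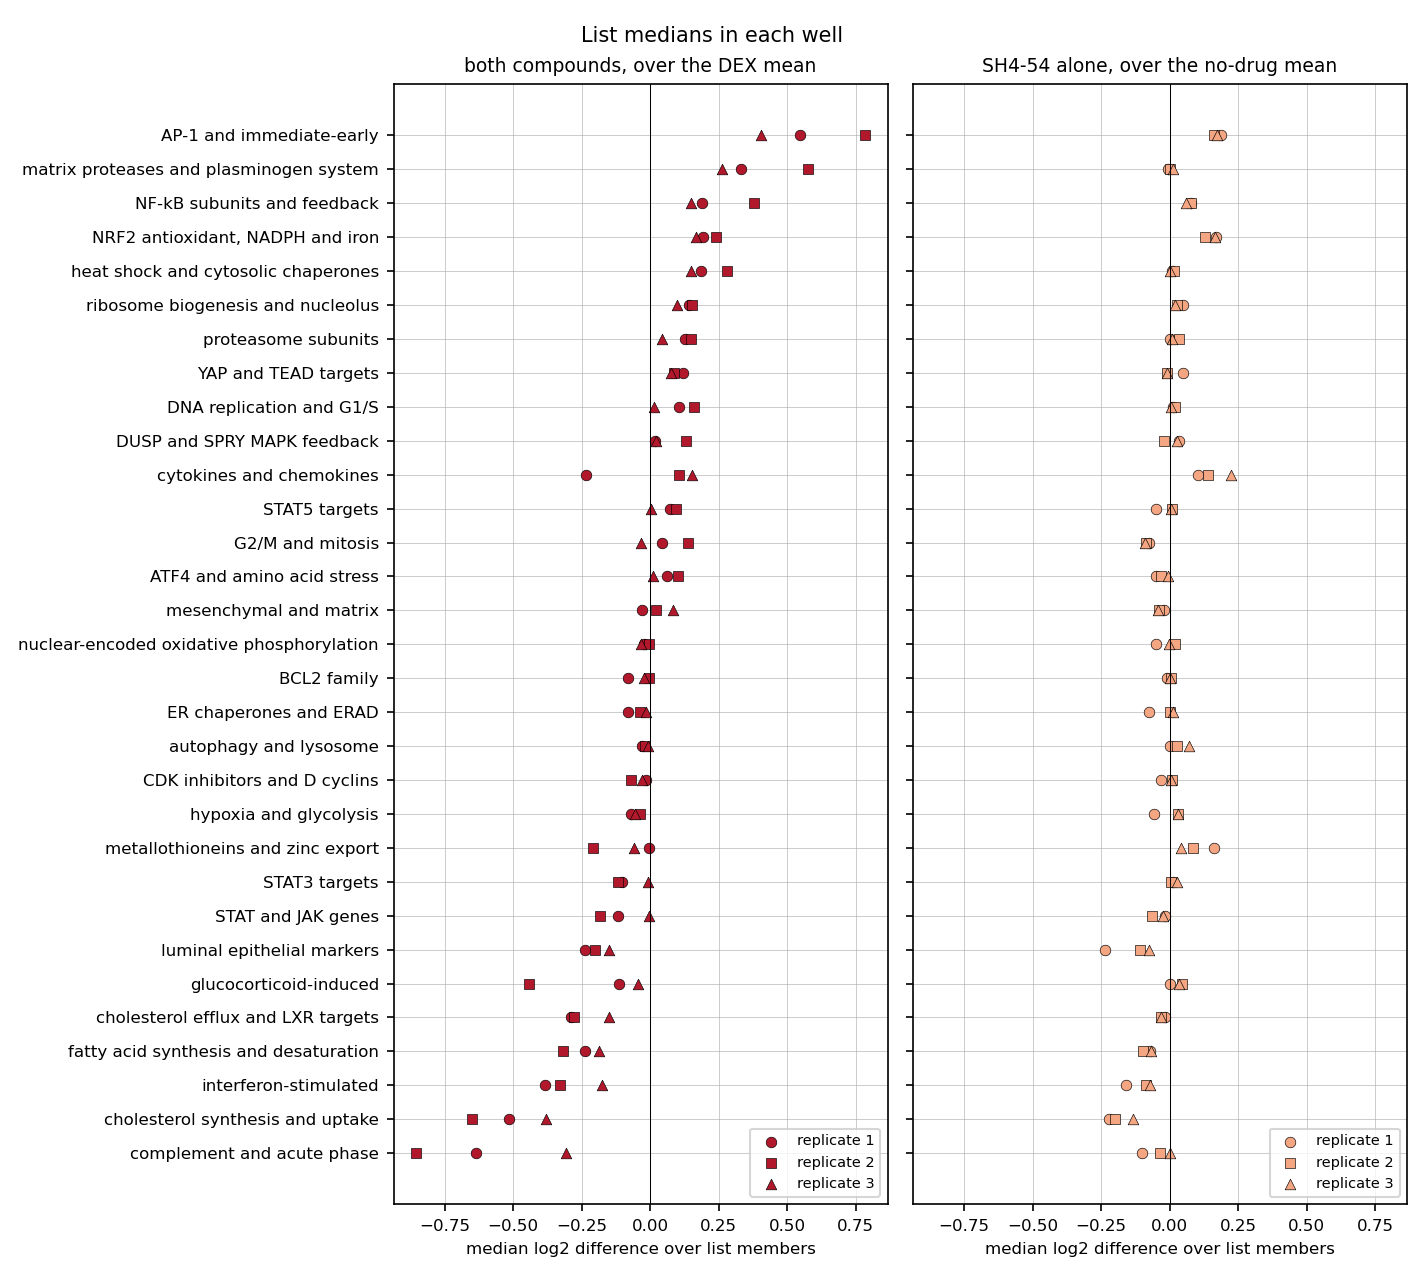
Median log2 difference over the members of each list (rows) in each well: left, combination wells over the DEX mean; right, SH4-54 wells over the no-drug mean; markers are replicates 1 to 3. Combination replicate 2 is the outermost well for immediate-early, cholesterol synthesis and complement genes, and the SH4-54 wells without DEX lie closer to 0 for these 3 lists.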

How the data were processed

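RNA of 12 libraries, 3 wells in each of 4 groups, was measured by RNA sequencing. Per the labels' protocols, ribosomal RNA was depleted with Ribo-Zero Gold, libraries were made with the Illumina TruSeq Stranded kit and reads were single-end with 50 cycles. Per the submitters' processing notes, HISAT2 2.1.0, SAMtools and featureCounts 1.5.1 were used with hg19 (GRCh37). No source used here gives the annotation, whether featureCounts used strand, or what happened to multiply matching reads, so overlapping genes and near-identical copies are uncertain. The authors deposited raw whole-number counts per gene symbol, with no normalization.

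Groups and replicate numbers came from the sample titles. Of 26364 rows, 4474 were 0 in all libraries, and filterByExpr (minimum count 10) kept 14184. TMM scaling and the quasi-likelihood test of edgeR 4.0.16 (limma 3.58.1, R 4.3.3) were applied to 1 model of all 12 libraries with 8 residual degrees of freedom, with Benjamini-Hochberg adjustment over all tested genes and a threshold of 0.05. Standard errors were obtained by dividing the size of the log2 fold change by √F. CPM (counts scaled to the library's total) values use TMM library sizes, and plotted log2 CPM a prior count of 2. The test was tried on simulated counts with known changes. Alternatives were DESeq2 size factors, the Wald test of DESeq2 1.42.0, 2 other count filters, a replicate block, only the compared groups, removal of the 10 most abundant genes and each library left out.

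The genes, the 31 lists and the tests were chosen with earlier results of these data known. Named genes were the 12 largest rises and falls by fold with at least 5 CPM and the 5 largest each by CPM difference. These were taken among changed genes whose combination and DEX wells did not overlap, so that separation was fixed by the choice. Also named were 6 genes low with DEX, up to 4 changed members a list, those with the smallest p, and a few fixed genes. For these list members a lack of overlap between the wells largely follows from the choice. Others, among them CDH1, CRYAB, CXCL1, JUN and SERPINA3, were added after their values were seen. Values of some single genes are not reported here. Promoters, from 250 bases before to 50 after the start, came from RefSeq (GRCh38.p14), the first listed per gene, matched by symbol. Their coordinates are not those of the authors' build. In all, 8 motifs were searched, and the antioxidant and cAMP response elements among them are not shown.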

Additional observations from a re-analysis of the deposited data

Results flagged for a closer look

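Of the named genes reported here, 79 had an effect of SH4-54 that differed between cells with DEX and cells without it, by the interaction in edgeR's quasi-likelihood test. In all, 186 genes were named. Over all tested genes the interaction was higher with DEX for 2.44% and lower for 1.46%. Most named genes were chosen by their change between combination and DEX wells, which is part of the interaction, so the choice raises this number. The values are differences of log2 fold changes, with DEX minus without DEX, and the edgeR adjusted p ranged from 0.00019 to 0.0478. The DEX wells enter these values, and the counts of such genes moved with single libraries as given above.

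Among immediate-early genes and their regulators, the effect was higher with DEX for FOS by 2.58, NR4A2 by 1.83, ATF3 by 1.13 and JUN by 1.01. Of the largest rises elsewhere, CCL26 by 3.38, SNAI1 by 3.34, IL11 by 2.14, RELN by 1.98, RASD1 by 1.88 and RGS4 by 1.59 were also higher. Inflammatory and matrix genes that were higher with DEX were IL24 by 1.55, MMP1 by 1.22, ADAMTS1 by 0.56, RELB by 0.58 and MAP3K14 by 0.53. Of the DUSP and SPRY list, EPHA2 by 0.47 and SPRY2 by 0.31 were higher. The call of SPRY2 for both compounds against DEX was kept in 2 of 6 fits with 1 library left out. The adhesion gene ICAM1 was lower, and differed by -0.30. Structural genes went both ways: TNC by 0.70, LAMB3 by 0.57, VIM by 0.49, CYR61 by 0.35 and FLNA by 0.26 were higher, while FN1 by -0.57, LOX by -0.54, RBMS3 by -0.46 and ITGA5 by -0.45 were lower.

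Chaperone and stress genes were higher with DEX, with differences for HSPA1B by 1.31, DNAJB1 by 0.63, HSPB1 by 0.50, HSPH1 by 0.45 and HMOX1 by 0.67. The amino acid stress genes PPP1R15A by 1.20, SLC7A5 by 0.57, DDIT3 by 0.49 and SLC3A2 by 0.43 were higher as well. Genes of protein turnover and synthesis differed less, MCOLN1 by 0.42, SQSTM1 by 0.35, EEF2 by 0.36, RRP12 by 0.28, TCOF1 by 0.25, PSMD3 by 0.24, LAMP1 by 0.23 and PSMB1 by 0.14, and EDEM1 was lower, by -0.33.

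Sterol genes were lower with DEX, INSIG1 by -0.68, MSMO1 by -0.59, FDFT1 by -0.51, HMGCS1 by -0.43, SQLE by -0.43, FDPS by -0.26 and ACAT2 by -0.25. Fatty acid and efflux genes followed, SCD by -0.81, ABCA1 by -0.66, ACSS2 by -0.54, FADS2 by -0.36 and FADS1 by -0.29. Interferon-stimulated genes were lower, OASL by -0.76, IFIT1 by -0.45, STAT2 by -0.41, HERC5 by -0.37 and IFIT3 by -0.36. Complement genes were split, with C3 by -1.53, SLPI by -1.35 and CD46 by -0.26 lower and C4BPB by 0.41 and CD55 by 0.33 higher.

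Glucocorticoid-induced genes that were lower were MT1X by -0.70, STOM by -0.69 and FKBP5 by -0.59, while SGK1 was higher, by 0.56. The remaining lower genes were ST8SIA4 by -0.84, PEG10 by -0.77, HIF1A by -0.33, ALCAM by -0.30 and PGK1 by -0.24, and the remaining higher genes were TFF1 by 2.28, SOCS2 by 0.49 and ADM by 0.45.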

How the results depend on the processing

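The 3 wells a group limit the precision. Leaving out 1 library at a time gave 1067 to 2026 risen and 1146 to 2607 fallen genes, 114 to 232 risen and 19 to 111 fallen past 2-fold, 135 to 833 and 68 to 1213 genes with an effect higher and lower with DEX, and 26 to 57 genes changed by SH4-54 alone. No call of the 3770 reversed in any alternative. Without a count filter 373 genes rose and 67 fell past 2-fold, and with a stricter one 77 and 23, since these filters decide which weakly counted genes are tested. Genes with an effect lower with DEX numbered 370 with DESeq2's Wald test and 389 without a filter. Those changed by SH4-54 alone numbered 185 with DESeq2's Wald test, 176 without a filter and 155 when only the compared groups were fitted. With DESeq2 size factors 1687 genes rose and 2097 fell. NR3C1 reversed to -0.0043 with DESeq2 size factors, -0.0046 with the Wald test and -0.0048 without a filter, and ranged from -0.019 to 0.017 with 1 library left out. STAT5B took -0.0068, -0.0059 and -0.0074 in these 3 settings and ranged from -0.033 to 0.045. Neither passed in any of them. Of 180 called named genes, 149 kept the call in each of the 13 alternatives that tested them. A gene that a filter removed was not counted as a lost call. The cause was not tested.

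No shared deviation was seen between wells of the same replicate number. Deviations of same-numbered combination and DEX wells correlated at -0.0388, -0.0814 and -0.0236, and those of differently numbered wells at -0.0648 to 0.0997. The labels do not say what a shared number means, and these values cannot show whether wells were handled in pairs. With the number as a replicate block, 1698 genes rose and 1786 fell, and 3414 of the 3770 calls were shared.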
